A study of Mus musculus with 3 samples.

Results

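The endoplasmic reticulum (ER) folding and stress genes described here were a set of 31 genes taken by name from 32285 measured features, and they were followed in 4 cell classes of the mouse vomeronasal organ (VNO). The set held 16 chaperones and folding enzymes of the ER lumen and its membrane, 7 genes of ER-associated degradation and 8 stress sensors and transcription factors. The 4 classes together held 2446 of 15711 kept cells. They were 162 V1R neurons, 79 V2R neurons, 422 immature neurons and 1783 secretory cells. A kept cell was a barcode with 200 to 9000 detected genes and at most 10% of its unique molecular identifiers (UMIs, counted mRNA molecules) from mitochondrial genes.

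The study asked how vomeronasal neurons differ in type and what ectopic AP-2ε, a transcription factor (gene Tfap2e) normally made by basal neurons, does to them over time. Whole VNOs of male mice on a mixed C57 BL/6J and 129P2/OlaHsd background were dissociated with papain, frozen, and profiled by 10x Genomics single-cell RNA-seq. The P10 control library came from OMPCre heterozygous mice at postnatal day 10, the P10 mutant library from OMPCreR26AP2e double heterozygous mice at that age, and the 3-month mutant library from adults of the same double heterozygous genotype. All 3 libraries therefore carried the OMPCre allele, and no 3-month control was analysed here. OMPCre acts in neurons that have turned on Omp, a gene of maturing chemosensory neurons and drives the R26AP2e transgene there. Each group was 1 library, how many animals a library pooled was not given, and every difference between libraries below rests on 1 library a side.

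The ER lumen is where receptors and secreted proteins fold. The Hsp70 chaperone BiP (Hspa5) and its J-domain partners bind unfolded chains, the lectins calnexin and calreticulin hold glycoproteins for the disulfide isomerase encoded by Pdia3, and chains that fail are sent through the Sel1l and Hrd1 (Syvn1) channel for degradation. When unfolded protein builds up, the sensors Ire1 (Ern1), Perk (Eif2ak3) and Atf6 start the unfolded protein response, which acts through the transcription factors Xbp1, Atf4 and Atf6. In chemosensory neurons this response is known to be tied to receptor expression through Atf5. Calr4, a calreticulin relative, is known as abundant in vomeronasal neurons. V1R neurons are the apical, Gnai2-expressing type, V2R neurons the basal, Gnao1-expressing type, and each uses its own receptor family.

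The libraries held 8202 barcodes (P10 control), 8864 (P10 mutant) and 10293 (3-month mutant), of which 4795, 3956 and 6960 were kept, with a median of 10236, 10766.5 and 5010.5 UMIs. Pairs of libraries shared 21 to 30 barcodes. Mature neurons were assigned to a type by their receptor UMIs (at least 5, of which 80% from 1 family), while immature neurons and secretory cells came from clusters made without the 31 genes. Gnai2 stood at 3579.7, 2815 and 2369.9 CPM (UMIs of a gene scaled to 1000000 UMIs of its class) in the V1R neurons of the P10 control, P10 mutant and 3-month mutant libraries, and Gnao1 at 490.0, 425 and 547 CPM in their V2R neurons. The V2R neurons of the P10 mutant library also held 1361 CPM of Gnai2, against 331 CPM in the P10 control. Omp stood at 503, 398 and 456 CPM in V1R and 375, 457 and 460 CPM in V2R neurons. Gap43, a gene of immature neurons, stood at 296, 266 and 47.9 CPM and at 528, 268 and 132 CPM. It was thus above Omp in the P10 control V2R neurons. The 12 immature neuron markers summed to 5584, 5906 and 4041 CPM in V1R and 8464, 6744 and 4618 CPM in V2R neurons. The part of maturity in differences between the types was not tested. Tfap2e stood at 0.618, 683 and 265 CPM in V1R neurons, low in the control and high in both mutants. It was also above the control in secretory cells (0.887, 38.9 and 21.4 CPM) and in all other kept cells (0.921, 148 and 47.6 CPM) of both mutants, so its signal was not limited to neurons. Median UMIs were 19317, 24380 and 20094 in V1R and 22743, 25447 and 19165 in V2R neurons, and median mitochondrial shares 4.53, 4.38 and 4.36% and 4.03, 4.72 and 3.41%, so neither set the types apart. The secretory cells of the 3-month library stood apart: their median was 663 UMIs, against 2578 and 15794.5 in the P10 control and P10 mutant, and 1005 of their 1269 cells came from a cluster with Igkc and Jchain among its leading genes. Results for secretory cells are therefore also given for the 1 cluster that had cells of all libraries.

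Some of the 31 genes share a sequence element in front of a RefSeq start. The ER stress response element, CCAAT and CCACG with 9 bases of any kind between them (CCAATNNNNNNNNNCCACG), was searched on both strands of the RefSeq promoters of GRCm38.p6, which run from 250 bases before to 50 bases after a gene's start. It was found for 10 of the 27 members with a promoter in that table, or 37.0%, and for 37 of all 27025 genes of the table, or 0.137%. Manf, Hyou1, Derl1 and Atf6 were not in the table. The matches are shown because they are the element through which Atf6 and Xbp1 are known to act, with the fixed letters in capitals, as read on the strand of the gene. In Calr, Calr4, Creld2, Derl3 and 1 of the 2 matches of Hsp90b1 the element lies on the other strand, so it begins with CGTGG and ends with ATTGG.
Hspa5, chr2:34772025-34772043, strand +: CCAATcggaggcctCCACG
Hsp90b1, chr10:86705533-86705551, strand -: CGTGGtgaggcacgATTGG
Hsp90b1, chr10:86705638-86705656, strand -: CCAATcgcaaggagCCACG
Calr, chr8:84847075-84847093, strand -: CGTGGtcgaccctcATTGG
Calr4, chr4:109218238-109218256, strand +: CGTGGtccccaaccATTGG
Canx, chr11:50325800-50325818, strand -: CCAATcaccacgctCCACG
Pdia6, chr12:17266491-17266509, strand +: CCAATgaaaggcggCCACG
Creld2, chr15:88819520-88819538, strand +: CGTGGcgagcctcaATTGG
Dnajc3, chr14:118937827-118937845, strand +: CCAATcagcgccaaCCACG
Syvn1, chr19:6046532-6046550, strand +: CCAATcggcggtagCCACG
Derl3, chr10:75893242-75893260, strand +: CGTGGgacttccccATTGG
The shorter element II (ATTGGNCCACG) was found for Dnajb11 and Herpud1 and for 0.0444% of all genes, the C/EBP-ATF element (TGATGNAA) for Herpud1 and Trib3 and for 4.51% of all genes, and the unfolded protein response element (TGACGTGG, which shares CGTGG with the first element) for 0 of the 27 and for 0.714% of all genes. No matches in the members overlapped. A match describes letters only, and no match says only that these letters are not in the window.

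Calr and Calr4 are also shown with their surroundings, since their levels ran in opposite directions between the cell classes. The stretch ends 10 bases before the RefSeq start and has the element in capitals. For Calr4 it lies before the most upstream of 4 RefSeq starts, and which start these cells use was not measured.
Calr, chr8:84846942-84847181, strand -: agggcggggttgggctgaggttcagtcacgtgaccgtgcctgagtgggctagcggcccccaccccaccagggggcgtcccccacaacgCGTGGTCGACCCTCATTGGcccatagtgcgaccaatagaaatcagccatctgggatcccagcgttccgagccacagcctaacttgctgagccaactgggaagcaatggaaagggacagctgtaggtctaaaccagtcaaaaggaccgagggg
Calr4, chr4:109218163-109218402, strand +: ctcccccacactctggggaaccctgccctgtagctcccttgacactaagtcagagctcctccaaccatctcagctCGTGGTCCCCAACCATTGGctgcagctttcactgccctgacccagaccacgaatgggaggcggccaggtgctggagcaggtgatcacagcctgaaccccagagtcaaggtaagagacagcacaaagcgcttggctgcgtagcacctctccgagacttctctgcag
In GENCODE M21 on the same assembly, the protein-coding Calr gene spans chr8:84841850-84846934 on the minus strand, Calr4 spans chr4:109234485-109254571 on the plus strand and Hspa5 spans chr2:34771970-34777547 on the plus strand. By these spans the Hspa5 match lies inside the gene, after its GENCODE start. The Calr4 stretch shown lies wholly upstream of the GENCODE gene and does not reach its start. The counts are tags from the 3' end of their transcripts.

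V2R neurons held the highest summed level of the set in each library. The 31 genes together stood at 9002, 9922 and 7505 CPM in the V1R neurons of the P10 control, P10 mutant and 3-month mutant libraries and at 19032, 16537 and 14385 CPM in their V2R neurons. Immature neurons stood at 8242, 8937 and 6363 CPM and secretory cells at 7563, 7583 and 4488 CPM, or 8273, 7639 and 4960.1 CPM in the secretory cluster of all libraries. The precursor sub-clusters (4547, 4424 and 3238 CPM) and all other kept cells (4117, 4039 and 3813 CPM) were lowest. These sub-clusters were set apart by Top2a, a gene of dividing cells, or by more Neurod1 than Gap43. Some of them led with genes of secretory or other non-neuronal cells. CPM is a share of the UMIs of a class, so more mRNA of a gene and less of all others cannot be told apart. The V2R range did not overlap the range of any other class, and V2R stood 2.11-, 1.67- and 1.92-fold above V1R neurons within the 3 libraries. In single cells of at least 1000 UMIs the median cell stood at 8196, 9453 and 7623 CPM in V1R neurons and at 16988, 14276 and 12666 CPM in V2R neurons.

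**Figure D1:**
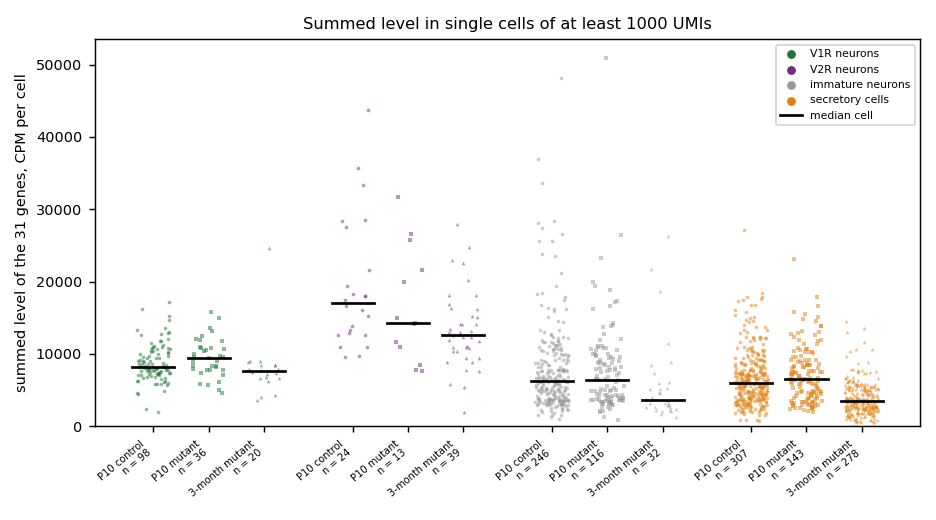
Summed level of the 31 genes in single cells of at least 1000 UMIs (vertical axis, CPM per cell) by class and library, each point a cell and each bar the median cell. The median V2R cell stood above the median V1R cell in all 3 libraries, while single cells of the classes overlapped.

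**Figure D2:**
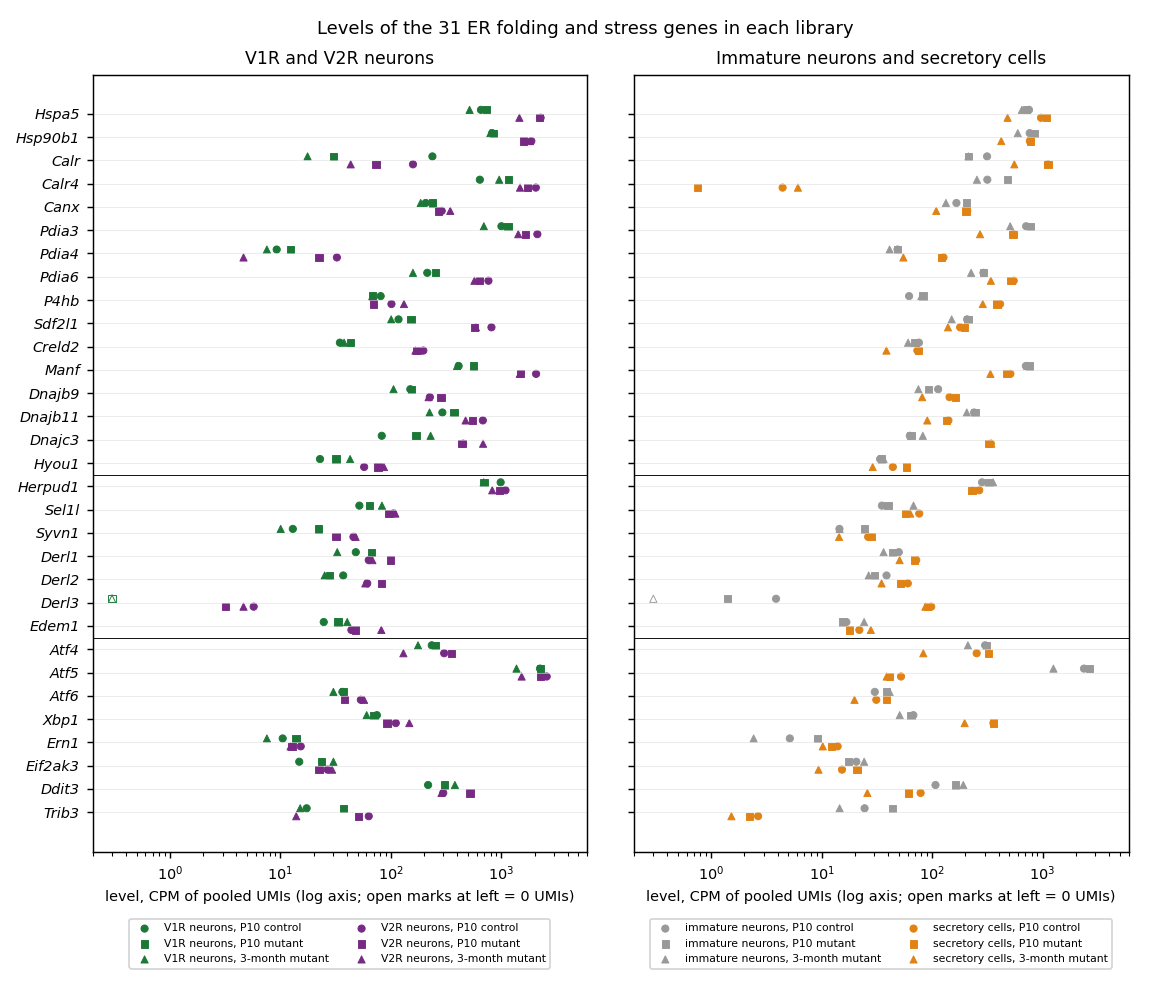
Level of each of the 31 genes in the pooled UMIs of a class (horizontal axis, CPM on a log scale), with circles for P10 control, squares for P10 mutant and triangles for 3-month mutant. The left panel holds V1R and V2R neurons, the right panel immature neurons and secretory cells, and open marks at the left edge stand for 0 UMIs, as for Derl3 in V1R neurons.

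Most lumen chaperones were higher in V2R than in V1R neurons, while the sensors and stress transcription factors did not pass the test in these classes. Of 29 members tested with edgeR's quasi-likelihood test on the class sums of the 3 libraries, 14 were higher in V2R neurons at a Benjamini-Hochberg adjusted p under 0.05 and 0 were lower, where 1.53% of the 7836 genes tested were higher and 0.855% lower. Of the 16 chaperones and folding enzymes 12 were higher, with a median log2 fold change of 1.05. Of the 6 degradation genes tested 2 were higher (median 0.73), and of the 7 sensors and transcription factors 0 were (median 0.29), while the median of all genes was -0.02. Derl3 and Ern1 had too few UMIs for the test.

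BiP and proteins that bind it were among the members that differed most. Hspa5, BiP itself, stood at 656, 741 and 517 CPM in V1R neurons and at 2270.0, 2230.1 and 1459 CPM in V2R neurons of the P10 control, P10 mutant and 3-month mutant (log2 fold change 1.61 ± 0.12 SE, edgeR adjusted p = 4.52e-05). Sdf2l1, a partner of the BiP and ERdj3, stood at 118, 152 and 101 CPM in V1R and at 815, 569 and 590.2 CPM in V2R neurons (log2 fold change 2.41 ± 0.17 SE, edgeR adjusted p = 2.71e-05). In both genes the lowest V2R library was above the highest V1R library. Manf, a small ER protein that binds BiP and is released under stress, stood at 411, 561 and 398 CPM in V1R and 2067, 1495 and 1472 CPM in V2R neurons (log2 fold change 1.86 ± 0.16 SE, edgeR adjusted p = 6.84e-05). Its locus overlaps Rbm15b on the same strand, so some tags of the pair cannot be told apart. Creld2, an ER protein with disulfide isomerase activity, stood at 34.6, 43.0 and 37.8 CPM in V1R and 197, 173 and 167 CPM in V2R neurons (log2 fold change 2.25 ± 0.18 SE, edgeR adjusted p = 4.52e-05). Here too the classes did not overlap.

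The J-domain co-chaperones and the exchange factor of BiP followed the same direction. Dnajc3 (P58IPK), a co-chaperone of BiP, stood at 82.9, 169 and 229 CPM in V1R and 452, 441 and 685 CPM in V2R neurons (log2 fold change 1.78 ± 0.20 SE, edgeR adjusted p = 0.000568). The 3-month mutant was highest in each class, and the classes did not overlap. Dnajb11 (ERdj3) stood at 293, 373 and 224 CPM in V1R and 681, 546 and 476 CPM in V2R neurons (log2 fold change 0.93 ± 0.15 SE, edgeR adjusted p = 0.00388). Hyou1 (Grp170), which exchanges the nucleotide of BiP, was sparse, at 22.9, 31.9 and 42.9 CPM in V1R and 57.4, 76.7 and 86.8 CPM in V2R neurons (log2 fold change 1.22 ± 0.23 SE, edgeR adjusted p = 0.0146). Its highest V1R value, in the 3-month mutant, lay below the lowest V2R value. Dnajb9 (ERdj4) was also called, with a log2 fold change of 0.81.

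Hsp90b1 (Grp94), the Hsp90 of the ER, stood at 828, 853 and 797 CPM in V1R and 1872, 1578 and 1820.2 CPM in V2R neurons (log2 fold change 1.07 ± 0.14 SE, edgeR adjusted p = 0.00103). All 3 V2R libraries lay above all 3 V1R libraries. Its locus overlaps Gm15344 on the same strand. Pdia6, a thiol oxidoreductase, stood at 214, 252 and 159 CPM in V1R and 766, 639 and 572 CPM in V2R neurons (log2 fold change 1.65 ± 0.14 SE, edgeR adjusted p = 4.83e-05), with no overlap. Pdia3, the isomerase that works with the lectin chaperones, was called at a log2 fold change of 0.86. P4hb (log2 fold change 0.44), Pdia4 (1.03, at 3 to 17 UMIs a library) and Canx (0.52) did not pass.

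The calreticulin pair split. Calr4 stood at 640.1, 1165 and 958 CPM in V1R and 2056, 1735 and 1479 CPM in V2R neurons (log2 fold change 0.95 ± 0.20 SE, edgeR adjusted p = 0.0334). The P10 mutant V1R value lay closest to the V2R values but below them. Calr, calreticulin itself, stood at 238, 30.5 and 17.6 CPM in V1R and 159, 73.5 and 43.4 CPM in V2R neurons, with overlap and a difference that did not pass (log2 fold change 0.01 ± 0.44 SE, edgeR adjusted p = 1.00). Its V2R over V1R ratio was 0.667 in the P10 control but 2.41 and 2.46 in the mutants, so the fitted value joins libraries of opposite direction.

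Among the degradation genes, Syvn1 (the ubiquitin ligase Hrd1) stood at 13.0, 22.2 and 10.1 CPM in V1R and 45.9, 31.9 and 48.0 CPM in V2R neurons (log2 fold change 1.51 ± 0.34 SE, edgeR adjusted p = 0.0400). Derl2, a derlin of the export channel, stood at 37.1, 27.7 and 25.2 CPM in V1R and 61.2, 83.1 and 58.9 CPM in V2R neurons (log2 fold change 1.10 ± 0.24 SE, edgeR adjusted p = 0.0335). Both were sparse but did not overlap between the classes. Herpud1, a scaffold of the Hrd1 complex (log2 fold change 0.26), Sel1l (0.65), Derl1 (0.61) and Edem1, which directs glycoproteins to disposal (0.80), did not pass.

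The transcription factors of the response did not pass the test between the neuron types in the classes made from clusters, but 3 of them did under another choice of cells. Xbp1, the target of Ire1, stood at 74.8, 70.7 and 60.5 CPM in V1R and 111, 92.7 and 147 CPM in V2R neurons (log2 fold change 0.75 ± 0.21 SE, edgeR adjusted p = 0.0936). Its lowest V2R value lay above its highest V1R value, but the difference did not pass. Its spliced form cannot be read from 3' tags. Atf4, which is translated when Perk is active, stood at 235, 252 and 176 CPM in V1R and 304, 355 and 130.1 CPM in V2R neurons (log2 fold change 0.16 ± 0.18 SE, edgeR adjusted p = 0.788). Atf5 stood at 2244, 2274 and 1374 CPM in V1R and 2578, 2256 and 1529 CPM in V2R neurons (log2 fold change 0.10 ± 0.12 SE, edgeR adjusted p = 0.822), and its 3-month values were the lowest of each class. Ddit3 (CHOP), a factor of prolonged stress, stood at 218, 308 and 381 CPM in V1R and 299, 521 and 288 CPM in V2R neurons (log2 fold change 0.27 ± 0.20 SE, edgeR adjusted p = 0.653), where 1 cell held 62.0% of the 163 UMIs of the P10 mutant V2R value. In Atf4, Atf5 and Ddit3 the classes overlapped. Atf6 (log2 fold change 0.48), Eif2ak3 (0.29) and Trib3, a pseudokinase downstream of Ddit3 (1.02), did not pass either. With classes set by a gate on single cells instead of clusters, Atf5 (log2 fold change 0.72, edgeR adjusted p = 0.0126), Ddit3 (0.76, adjusted p = 0.0146) and Xbp1 (0.70, adjusted p = 0.0433) were called higher in V2R neurons. Under that gate 585 of all 11477 genes tested were called higher, against 120 of 7836 in the classes made from clusters.

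**Figure D3:**
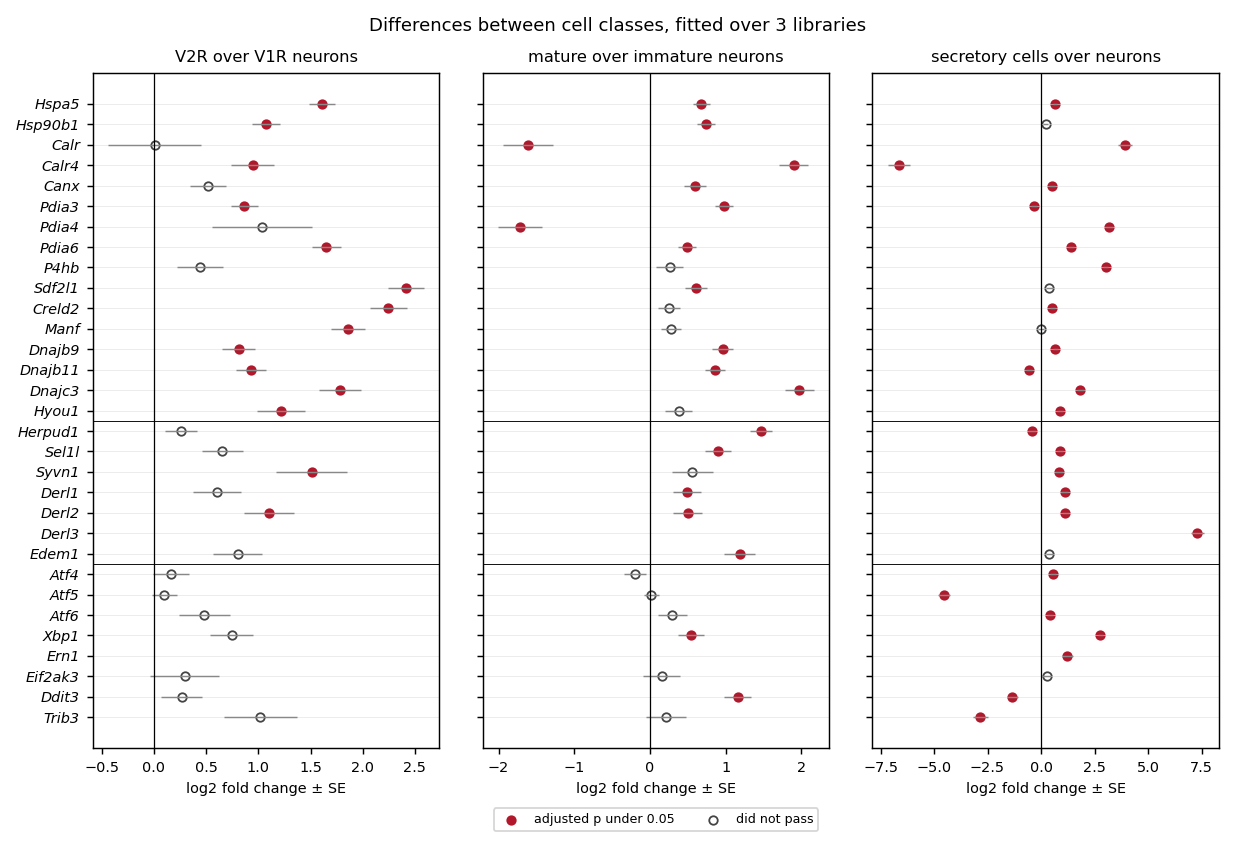
Log2 fold change ± SE of each tested member in the 3 class comparisons, fitted with edgeR over the sums of 3 libraries, filled where the adjusted p was under 0.05. In the left panel 12 of 16 chaperones and folding enzymes (top block) were filled to the right of 0, and none of the sensors and factors (bottom block) was; the Derl3 value in the right panel depends on the prior count, since V1R neurons had 0 UMIs, and the right panel is on the TMM scale, where Hspa5, Hsp90b1, Sdf2l1, Atf4 and other values change sign with total UMIs only.

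Leaving out single libraries ended 7 of the 14 calls. Without the P10 control 8 members were called (Calr4, Pdia3, Dnajb11, Hyou1, Syvn1 and Derl2 were lost), without the P10 mutant 10 (Calr4, Dnajb9, Hyou1 and Derl2 lost), and without the 3-month mutant 10 (Dnajb9, Hyou1, Syvn1 and Derl2 lost). Calls over all genes fell too. In the same order 47 of 7494, 67 of 7675 and 71 of 9513 genes were called higher, against 120 of 7836 with all libraries. Hspa5, Hsp90b1, Pdia6, Sdf2l1, Creld2, Manf and Dnajc3 were called in every alternative run. Of the others, DESeq2 did not call Syvn1 and Derl2, and the limit of 5% mitochondrial UMIs did not leave Dnajb9 and Syvn1 called. Secretory markers, 32 genes that free RNA could carry into neurons, summed to 472, 116 and 2059.8 CPM in V1R and 567, 102 and 1723 CPM in V2R neurons, highest at 3 months in both types.

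The same direction was seen library by library. Past a 1.5-fold ratio, 19 of 30 members with at least 20 UMIs were higher in V2R neurons of the P10 control, where 11.9% of all genes were. For the P10 mutant this was 13 of 28 (10.5% of all genes), and for the 3-month mutant 21 of 27 (17.5%). In each library 0 members were lower past that ratio, where 16.9%, 12.6% and 10.7% of all genes were. The median member log2 ratio was 0.94, 0.57 and 1.05. Sdf2l1 gave ratios of 6.94 (5.83 to 8.28), 3.73 (2.93 to 4.78) and 5.85 (4.22 to 8.32) by library in the same order, where brackets hold the exact 95% interval for counting error only. Manf gave 5.03 (4.56 to 5.54), 2.66 (2.33 to 3.05) and 3.69 (3.12 to 4.40).

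Other lists of genes of the same compartment and its surroundings were tested in the same fit. Of 29 other ER folding genes tested, 2 were higher in V2R neurons and 1 lower, with a median log2 fold change of 0.33: Fkbp2, a prolyl isomerase (1.07 ± 0.13 SE), and Ppib, cyclophilin B (0.62 ± 0.12 SE), were higher, and Clgn, calmegin, a calnexin relative (-0.74 ± 0.16 SE), was lower. Of 34 translocon and signal peptide genes (median 0.41) 10 were higher and 0 lower, among them Spcs2 (1.15 ± 0.17 SE) and Sec11c (1.10 ± 0.19 SE), subunits of the signal peptidase, and Serp1 (0.98 ± 0.21 SE). Of 17 other degradation genes (median 0.16) 1 was higher, Selenos (1.00 ± 0.16 SE). Of 23 other stress response targets (median 0.31), 20 cytosolic and mitochondrial chaperones (median -0.10) and 13 immediate early genes of dissociation (median -0.28), 0 passed in either direction. The difference between these lists and the 31 genes was not tested.

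Immature neurons that already had a dominant receptor family also differed in the summed level, with lumen chaperones higher in the V2R-dominant cells. In the P10 control, 41 V2R-dominant immature cells stood at 16046 CPM over the 31 genes and 86 V1R-dominant ones at 7045 CPM. In the P10 mutant, 19 and 30 such cells stood at 14538 and 8366 CPM. For Hspa5 the CPM ratio of V2R-dominant over V1R-dominant immature cells was 3.95 (3.58 to 4.36) in the control and 3.18 (2.73 to 3.71) in the mutant. For Sdf2l1 the ratio was 8.60 (6.87 to 10.9) and 7.76 (5.52 to 11.2), for Calr4 4.56 (3.90 to 5.35) and 2.91 (2.45 to 3.48), and for Calr 0.963 (0.803 to 1.15) and 0.952 (0.709 to 1.27). The interval of Calr took in 1 at both, and those of the other 3 genes did not. These brackets hold the counting error of pooled UMIs only, not the spread between cells. In cells of at least 1000 UMIs, the lower and upper quartiles over the 31 genes were 10856 and 21190 CPM in V2R-dominant cells of the control. In its V1R-dominant cells they were 4434 and 9055 CPM. In the mutant they overlapped, at 6037 and 18066 CPM against 6853 and 9678 CPM. Not all members went this way, since in the P10 mutant the ratios of Dnajb9 at 0.444 (0.260 to 0.728), Herpud1 at 0.566 (0.438 to 0.726), Ddit3 at 0.536 (0.369 to 0.765), Trib3 at 0.268 (0.109 to 0.571) and Atf5 at 0.905 (0.834 to 0.982) were all below 1. In the P10 control the same 5 ratios were 1.05 (0.765 to 1.42), 0.892 (0.748 to 1.06), 1.34 (1.02 to 1.76), 2.36 (1.36 to 4.09) and 1.31 (1.23 to 1.39). The 3-month library had only 3 V2R-dominant and 5 V1R-dominant immature cells. In them the ratio was 5.85 (3.86 to 9.17) for Hspa5, 10.7 (4.27 to 34.3) for Sdf2l1, 6.62 (3.57 to 13.4) for Calr4 and 4.35 (2.73 to 7.21) for Herpud1, at 21300.1 against 6474 CPM over the 31 genes. With so few cells these brackets leave out most of the uncertainty. A single cell held a large part of the Sdf2l1 UMIs of that immature class, as given below.

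Mature sub-clusters with more Gnai2 than Gnao1, here the Gnai2 sub-clusters, held most V1R neurons. In 1 of them, of 22 cells, Gnai2 stood at 801 and Gnao1 at 204 CPM, against 2360 to 3488 CPM of Gnai2 in the others. Omp and Gap43 both stood at 87.3 CPM in it, against 433 to 490 CPM of Omp in the others. It was counted as mature only because Omp was not below Gap43. A few V2R neurons lay in these sub-clusters too. They numbered 3 (P10 control), 5 (P10 mutant) and 10 (3-month mutant). This division was made after the data were seen. Their 31 genes stood at 17095, 14628 and 10179 CPM, against 9002, 9898 and 7505 CPM in the V1R cells of those sub-clusters and 19143, 17803 and 15338 CPM in the V2R cells of the Gnao1 sub-cluster. Hspa5 was 3.95, 3.20 and 1.77 times as high in them as in the V1R cells around them, and Calr4 2.33, 0.839 and 1.13 times. The P10 mutant value of Hspa5 rests on few cells, since the median of its 5 cells was 738 CPM and the highest 4768 CPM. Over the 31 genes the median of those 5 cells was 8519 CPM (from 7672 to 25788), below the pooled value of the V1R cells around them. The P10 control value rests on 3 cells, whose median Gnai2 was 0 CPM, and the 10 cells of 3 months had a median Gnai2 of 246 CPM.

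Mature neurons held more of most members than the pooled immature neurons, while Calr and Pdia4 were lower in them. The mature side gave V1R and V2R neurons equal weight. The immature pool of the P10 control held 41 V2R-dominant and 86 V1R-dominant cells among 267, and most others had no dominant family. Differences between the types can thus enter this contrast, and their part was not tested. Of 29 members 17 were higher in mature neurons (the mean of V1R and V2R neurons) and 2 lower, where 22.2% of all 7836 genes were higher and 22.2% lower. The 17 were 10 of 16 chaperones and folding enzymes, 5 of 6 degradation genes and 2 of 7 sensors and factors. Within the V2R type the 31 genes stood at 19032, 16537 and 14385 CPM in mature and 16046, 14538 and 21300 CPM in V2R-dominant immature cells of the P10 control, P10 mutant and 3-month mutant. Within the V1R type they stood at 9002, 9922 and 7505 CPM in mature and 7045, 8366 and 6474 CPM in immature cells. Calr4 stood at 316, 481 and 255 CPM in the immature neurons of the P10 control, P10 mutant and 3-month mutant, below each mature value (log2 fold change 1.90 ± 0.19 SE, edgeR adjusted p = 1.08e-05). Calr stood at 315, 214 and 214 CPM there and was lower in mature neurons (log2 fold change -1.62 ± 0.33 SE, edgeR adjusted p = 0.00188), although the V1R neurons of the P10 control overlapped the immature range. Pdia4, at 48.7, 48.4 and 41.3 CPM in immature neurons, was the other member that fell (log2 fold change -1.72 ± 0.29 SE, edgeR adjusted p = 0.000445). Its UMIs in mature neurons were few, and under the single-cell gate its call was lost (log2 fold change -0.69, edgeR adjusted p = 0.0585).

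Most degradation genes tested were higher in mature neurons, although Derl1 and Derl2 were called in few alternatives. Herpud1 stood at 284, 328 and 357 CPM in immature neurons, 988, 698 and 693 CPM in V1R and 1093, 971 and 829 CPM in V2R neurons (log2 fold change 1.47 ± 0.14 SE, edgeR adjusted p = 8.06e-06), and no mature library came down to the immature range. Edem1 and Sel1l were called at log2 fold changes of 1.18 and 0.90, and these 3 genes were called in every alternative run. Derl1 lost its call in 8 and Derl2 in 9 of 11 alternatives, Syvn1 did not pass (log2 fold change 0.56 ± 0.27 SE, edgeR adjusted p = 0.109) and Derl3 was not tested. Among chaperones, Dnajc3 stood at 62.9, 64.5 and 82.5 CPM in immature neurons (log2 fold change 1.97 ± 0.19 SE, edgeR adjusted p = 8.06e-06). Ddit3 stood at 107, 163 and 192 CPM in immature neurons (log2 fold change 1.16 ± 0.18 SE, edgeR adjusted p = 0.000234), below each mature value of its library. Hspa5 (754, 719 and 650.4 CPM in immature neurons) rose by a log2 fold change of 0.68, where its V2R values lay above the immature range and its V1R values overlapped it. Sdf2l1 (208, 211 and 150.5 CPM in immature neurons) rose by 0.61, with each V2R value above and each V1R value below the immature value of its library. Atf5 stood at 2372, 2662 and 1255 CPM in immature neurons, a range that overlapped the mature ones (log2 fold change 0.02 ± 0.10 SE, edgeR adjusted p = 0.896), and Atf4 at 302, 311 and 211 CPM (log2 fold change -0.20 ± 0.15 SE, edgeR adjusted p = 0.297). In the 3-month mutant the immature class was 32 cells, and a single cell held 50% of its Sdf2l1 UMIs and 37% of its Manf UMIs. Leaving out single libraries ended the calls of Derl1 (without the P10 mutant or the 3-month mutant), Derl2 (without any of the 3) and Xbp1 (without the P10 control or the P10 mutant). Of the other lists, 15 of 29 ER folding genes, 19 of 34 translocon genes, 8 of 17 degradation genes and 10 of 23 stress response targets were higher in mature neurons, and 1, 0, 1 and 5 were lower. Of 20 cytosolic and mitochondrial chaperones 2 were higher and 4 lower, and of 13 immediate early genes 2 were higher and 4 lower.

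Calr4 made up a larger share of the pair's UMIs in mature than in immature neurons of each library. Calr4 made up 0.395, 0.0666 and 1.09% of the UMIs of the pair in secretory cells of the P10 control, P10 mutant and 3-month mutant. In the precursor sub-clusters it made up 3.92, 2.90 and 9.69%. Those sub-clusters held 16713, 8243 and 3241 CPM of secretory markers in the same order. A sub-cluster among them led with Lcn3, Dmbt1 and Obp2a at 0 CPM of Neurod1, so this share is not that of neuronal precursors alone. The share was 50.1, 69.2 and 54.4% in immature neurons, 72.9, 97.5 and 98.2% in V1R neurons and 92.8, 95.9 and 97.2% in V2R neurons. These are shares of counted molecules, and how well each transcript is captured was not measured, so only the shift between cells is compared. The P10 control V1R neurons had the lowest share of the mature classes. Thinned to 2000 UMIs a cell, Calr4 was detected in 69.6% (59.1 to 78.7) of P10 control V1R neurons and 91.7% (73.0 to 99.0) of V2R neurons, but in 1.03% (0.124 to 3.66) of secretory cells and 0.692% (0.417 to 1.08) of the non-neuronal remainder. Free RNA was not measured, and its part in these low values was not tested.

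Among mature neurons with at least 2000 UMIs, cells without a Calr UMI were 14 of 92 V1R neurons of the control, and 26 of 32 and 16 of 19 of the P10 and 3-month mutants. Among V2R neurons they were 13 of 24, 8 of 13 and 26 of 38 in the same order. The median V1R cell of the P10 control held 225 CPM of Calr, and the median cell held 0 in the other 5 samples of mature neurons. Calr exceeded Calr4 in 10 of the 92 V1R neurons of the P10 control and in 0 cells of the other 5 samples.

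**Figure D4:**
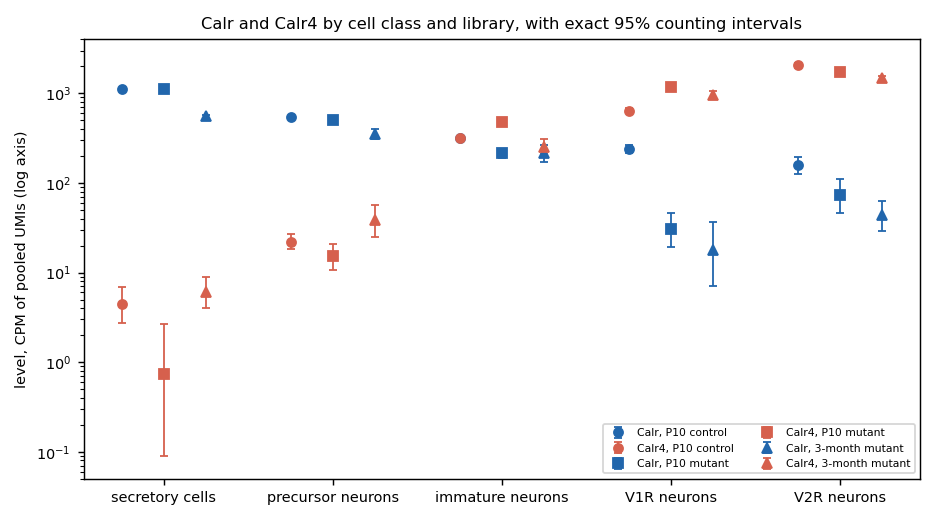
Level of Calr (blue) and Calr4 (red) in pooled UMIs of 5 cell classes (vertical axis, CPM on a log scale), with circles for P10 control, squares for P10 mutant and triangles for 3-month mutant and bars for exact 95% counting intervals. Calr lay above Calr4 in secretory cells and in the precursor sub-clusters, which were not all neuronal. The pair lay closer together in immature neurons, and Calr4 lay above Calr in the pooled UMIs of both mature classes in every library.

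Secretory cells held the pair the other way round, and P4hb, Pdia4 and Xbp1 were higher in them than in neurons. How many members differed depended on the scaling. On the scale of edgeR's TMM factors, of 31 members 19 were higher in secretory cells than in the mean of the 3 neuron classes and 7 lower, where 35.5% of 10207 genes were higher and 33.3% lower. The 19 were 10 of 16 chaperones and folding enzymes, 5 of 7 degradation genes and 4 of 8 sensors and factors. Scaled to total UMIs only, an alternative chosen after seeing the data, 7 members were higher and 11 lower, where 15.8% of all genes were higher and 56.9% lower. The median log2 fold change of all genes was 0.03 with TMM and -0.83 with total UMIs only, and that of the members 0.56 and -0.31. In CPM, a share of total UMIs, the summed level of the whole secretory class was below that of each neuron class in every library. The secretory cluster of all libraries stood at 8273 CPM in the P10 control, just above immature neurons there at 8242 CPM, and below each neuron class in both mutants. Calr stood at 1119, 1121 and 555 CPM in secretory cells of the P10 control, P10 mutant and 3-month mutant (log2 fold change 3.94 ± 0.32 SE, edgeR adjusted p = 1.55e-07), above each neuron value. P4hb, protein disulfide isomerase, stood at 413, 387 and 288 CPM (log2 fold change 3.02 ± 0.13 SE, edgeR adjusted p = 5.17e-10) and Pdia4 at 127, 122 and 55.0 CPM (log2 fold change 3.18 ± 0.19 SE, edgeR adjusted p = 8.98e-09). For P4hb and Pdia4 each secretory value was likewise above each neuron value. Xbp1 stood at 359, 357 and 197 CPM (log2 fold change 2.77 ± 0.13 SE, edgeR adjusted p = 8.30e-10), with no overlap. Derl3, a derlin of secretory tissues, stood at 98.3, 91.5 and 87.0 CPM in secretory cells, while V1R neurons had 0 UMIs in every library and V2R and immature neurons 0 to 12. No fold is given for it, since the fitted value depends on the prior count.

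The members that were lower in secretory cells were Calr4, Atf5, Trib3, Ddit3, Dnajb11, Herpud1 and Pdia3. Calr4 came to 20, 2 and 28 UMIs, or 4.44, 0.747 and 6.11 CPM, in secretory cells (log2 fold change -6.64 ± 0.50 SE, edgeR adjusted p = 6.74e-08). Atf5 stood at 52.3, 41.5 and 38.8 CPM there (log2 fold change -4.54 ± 0.29 SE, edgeR adjusted p = 1.28e-08), and Ddit3 at 78.7, 61.6 and 26.0 CPM (log2 fold change -1.34 ± 0.24 SE, edgeR adjusted p = 0.000247). In all 3 genes no secretory value reached a neuron value. Of the members given so far, Calr, P4hb, Pdia4, Xbp1, Calr4, Atf5 and Ddit3 were called in the same direction with total UMIs only. Hspa5 stood at 969, 1080.0 and 483 CPM in secretory cells, between V1R and V2R neurons at P10 (log2 fold change 0.65 ± 0.11 SE, edgeR adjusted p = 0.000113), Sdf2l1 at 179, 198 and 139 CPM (log2 fold change 0.38 ± 0.17 SE, edgeR adjusted p = 0.0580), and Atf4 at 253, 326 and 83.3 CPM, with overlap (log2 fold change 0.56 ± 0.14 SE, edgeR adjusted p = 0.00253). With total UMIs only these 3 turned to -0.24 (edgeR adjusted p = 0.243), -0.54 (0.0145) and -0.31 (0.213), so their direction depends on the scaling. Without the P10 control the calls of Canx, Pdia3, Dnajb11, Herpud1 and Atf6 were lost, without the P10 mutant those of Pdia3, Dnajb11, Herpud1 and Atf6, and without the 3-month mutant that of Atf6.

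Other measures moved with the secretory class. All 13 immediate early genes of dissociation were higher in it (median log2 fold change 4.39), and they summed to 19988, 23755 and 6939 CPM, against 2817, 3084 and 2756 CPM in V1R and 2768, 2581 and 2503 CPM in V2R neurons. All 4 plasma cell markers had UMIs in the secretory cells of 3 months, which held 308 CPM of them, against 10.9 and 10.1 CPM at P10. The part of either in these values was not tested. With the secretory cluster of all libraries alone, the log2 fold change was 4.06 for Calr, -8.85 for Calr4, 3.22 for P4hb and 2.88 for Xbp1, all still called, and the calls of Pdia3 and Herpud1 were lost. Of the other lists, 19 of 31 ER folding genes were higher in secretory cells and 5 lower, with Qsox1, a sulfhydryl oxidase (6.74 ± 0.17 SE), and Fkbp11 (6.62 ± 0.27 SE) higher and Clgn (-6.54 ± 0.37 SE) lower. Of 34 translocon genes 27 were higher and 2 lower, of 19 degradation genes 10 and 2, of 28 stress response targets 16 and 4, and of 22 cytosolic and mitochondrial chaperones 9 and 7, all on the TMM scale.

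Between the P10 mutant and the P10 control, a minority of members differed by 1.5-fold, among them Calr and Calr4 in V1R neurons. In V1R neurons 5 of 30 members with at least 20 UMIs were higher in the mutant and 1 lower, where 9.02% of all genes were higher and 11.4% lower. In V2R neurons 2 of 29 were higher and 1 lower (11.5% and 10.5% of all genes), in immature neurons 5 of 30 and 0 (9.27% and 6.77%), and in secretory cells 0 of 30 and 1 (12% and 8%). The median member log2 ratio was 0.30 in V1R neurons, with 25 of 30 members above 0, where the median of all genes was -0.017 and 48.1% lay above 0. In V2R neurons it was -0.24, with 7 of 29 members above 0, against -0.0057 and 49.6% for all genes. In immature neurons it was 0.047 (0.048 for all genes) and in secretory cells -0.058 (0.051). With 1 library a side, genotype and library cannot be told apart, and the ratios below carry exact 95% intervals for counting error only.

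In V1R neurons Calr counted 385 UMIs in the control and 22 in the mutant, a CPM ratio of 0.128 (0.0793 to 0.197). Under classes set by a fixed gate on single cells instead of clusters, the log2 ratio was -0.58 in place of -2.97. In V2R neurons the Calr ratio was 0.463 (0.278 to 0.741), and -0.31 on the log2 scale under the gate in place of -1.11. Calr4 was higher in the V1R neurons of the mutant by a ratio of 1.82 (1.66 to 2.00) and in immature neurons by 1.52 (1.38 to 1.68). The latter reversed under the gate. Calr4 in secretory cells was 2 against 20 UMIs, a ratio of 0.168 (0.0191 to 0.693), where the part of free RNA was not tested. Calr4 came to 2 against 7 UMIs in the secretory cluster of all libraries. In that cluster, an alternative chosen after seeing the data, 0 of 29 members were past 1.5-fold either way, where 11.8% of all genes were higher and 4.93% lower.

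Dnajc3 in V1R neurons was higher by a ratio of 2.04 (1.58 to 2.63) in the P10 mutant, and Trib3 by 2.16 (1.23 to 3.80), with 44.4% of its 27 mutant UMIs in 1 cell. On the log2 scale Dnajc3 was 0.50 under the gate in place of 1.03, and Trib3 0.33 without doublets in place of 1.11. In V2R neurons Ddit3 was higher by a ratio of 1.74 (1.39 to 2.19), a value carried by the 1 cell named above and reversed when only cells under 5% mitochondrial UMIs were kept. In immature neurons Syvn1 gave a ratio of 1.69 (1.06 to 2.69), Ddit3 1.52 (1.28 to 1.80) and Trib3 1.80 (1.27 to 2.55). Under the gate the Ddit3 difference in immature neurons came to 0.0094 on the log2 scale. Hspa5 stayed within 1.5-fold at P10, with ratios of 1.13 (1.02 to 1.26) in V1R, 0.982 (0.893 to 1.08) in V2R and 0.954 (0.886 to 1.03) in immature neurons. Atf5 did so too, with 1.01 (0.955 to 1.07) in V1R and 0.875 (0.798 to 0.959) in V2R neurons, and Xbp1 gave 0.944 (0.667 to 1.32) and 0.835 (0.515 to 1.33).

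**Figure D5:**
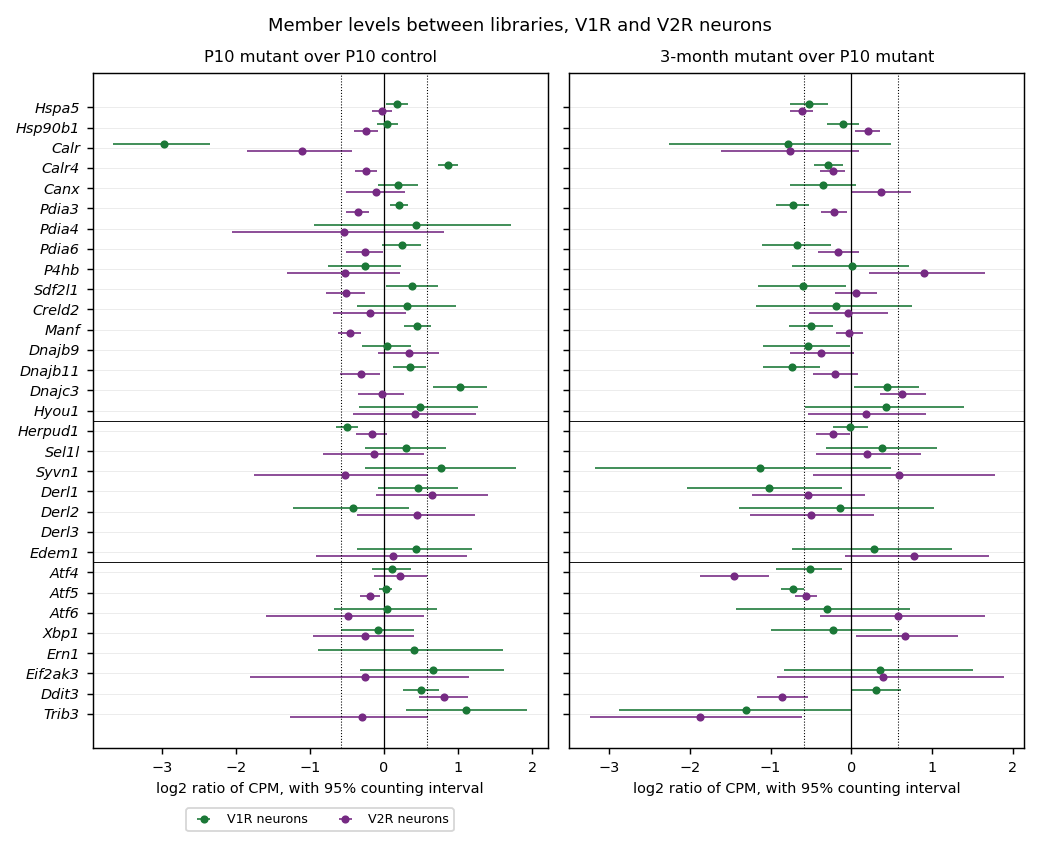
Log2 ratio of CPM between libraries (horizontal axis) for each member with at least 20 UMIs in V1R (green) and V2R (purple) neurons, with exact 95% counting intervals and dotted lines at 1.5-fold. In the left panel Calr in V1R neurons lies furthest from 0, at -2.97, and most V1R points lie right of 0 and most V2R points left of it.

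Between the mutants of 3 months and P10, members in secretory cells and the bulk of all genes there were lower at 3 months, and the neuronal classes differed less. In V1R neurons 0 of 28 members were higher in the 3-month library and 9 lower, where 9.44% of all genes were higher and 22.8% lower. In V2R neurons 5 of 28 were higher and 5 lower (14.4% and 18.4% of all genes), in immature neurons 2 of 29 and 6 (12.1% and 22.9%), and in secretory cells 2 of 30 and 16 (5.92% and 70.1%). The secretory counts stand beside a median of -0.93 over all genes and -0.73 over the members on the log2 scale. In the secretory cluster of all libraries 0 of 29 members were higher and 16 lower (1.88% and 82.5% of all genes), with a median of -1.17 over all genes and -0.77 over the members. Age and library cannot be told apart here.

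Atf5, the factor tied to receptor expression, and Atf4 were lower in some neurons of the 3-month library. Atf5 was lower at 3 months by a ratio of 0.604 (0.548 to 0.666) in V1R neurons and 0.471 (0.429 to 0.517) in immature neurons, and stood at 0.678 (0.615 to 0.748) in V2R neurons. Under the gate the immature log2 ratio was -0.022 in place of -1.09. Atf4 was lower in V2R neurons by a ratio of 0.367 (0.273 to 0.492), Hspa5 by 0.654 (0.593 to 0.723), and Trib3 by 0.273 (0.106 to 0.655) at 9 against 16 UMIs. Ddit3 in V2R neurons (0.553, 0.446 to 0.687) rested on the same P10 cell and reversed under the 5% limit. P4hb (1.87, 1.16 to 3.15), Dnajc3 (1.55, 1.28 to 1.89) and Xbp1 (1.59, 1.04 to 2.50) were higher in V2R neurons of the 3-month library.

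In V1R neurons the chaperones Pdia3 (0.605, 0.526 to 0.694), Dnajb11 (0.602, 0.468 to 0.768), Pdia6 (0.630, 0.465 to 0.843) and Sdf2l1 (0.662, 0.449 to 0.958) and the derlin Derl1 (0.493, 0.245 to 0.924) were lower at 3 months. Pdia6 turned to 0.11 on the log2 scale under the gate. In immature neurons Calr4 (0.530, 0.428 to 0.652), Pdia3 (0.658, 0.565 to 0.763), Canx (0.647, 0.476 to 0.866) and Trib3 (0.329, 0.117 to 0.758) were lower and Sel1l (1.70, 1.04 to 2.72) higher, in a class of 32 cells. Calr4, Pdia3 and Canx reversed under the gate. In secretory cells, where most genes were below 1, Atf4 stood at 0.256, 0.226 to 0.288, Hspa5 at 0.447, 0.423 to 0.472, Calr at 0.495, 0.470 to 0.522, Pdia4 at 0.451, 0.381 to 0.534, Ddit3 at 0.421, 0.330 to 0.536 and Pdia3 at 0.504, 0.466 to 0.544. In the secretory cluster of all libraries the same 6 members stood at 0.229, 0.198 to 0.263, 0.500, 0.472 to 0.530, 0.541, 0.512 to 0.573, 0.481, 0.402 to 0.574, 0.291, 0.214 to 0.392 and 0.532, 0.491 to 0.577. Edem1 was above 1, at 1.56, 1.11 to 2.22, or 1.47, 1.03 to 2.13 in that cluster. Calr4 was at 8.18, 2.06 to 70.8 from 28 against 2 UMIs, but all 28 came from the other secretory clusters, and that cluster held 0 against 2.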

How the data were processed

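Per the labels and file headers, the authors aligned 10x Genomics 3' reads to mm10 and deposited raw UMI counts per gene and barcode, filtered to cells. The matrix headers name Cell Ranger 4.0.0 for the P10 libraries and 6.0.1 for the 3-month library, whereas the submitters' processing notes list 4.0.0 for each, with bcl2fastq and Seurat 3.2.3. The deposited counts were not normalized. Total UMIs per library ran from 70074800 to 83870584. Cell Ranger leaves out reads that match more than 1 gene, which can lower overlapping genes, and the 2 overlapping Ddit3 features were summed.

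Barcodes with 200 to 9000 genes and at most 10% mitochondrial UMIs were kept, where the study's own limit was 5%. Cells were clustered in scanpy 1.11.5 (2000 variable genes, 30 principal components, Leiden algorithm, leidenalg 0.10.2), without the 31 members, the other gene lists and the receptor genes, and clusters were named from marker genes. The scoring that named them from these markers was set after the clusters had been seen. Secretory clusters and neuronal sub-clusters were left out as mixed where the 20 leading genes of a different type reached more than 20% of their level in that type. Receptor genes stayed in library sizes and were not tested. Scrublet called 3, 4 and 6 barcodes, too few to have worked, so doublets were kept, with an alternative that left out the highest scores at 0.8% per 1000 barcodes.

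UMIs were summed per class and library. Class comparisons used edgeR 4.0.16 (quasi-likelihood test, TMM, filterByExpr, library and class as terms, 9 sums of neurons or 12 with secretory cells) in R 4.3.3, with Benjamini-Hochberg adjustment over all genes tested. The spread between the 3 libraries includes their genotype and age. Between libraries, CPM ratios carry an exact conditional binomial 95% interval, and levels an exact Poisson interval, for counting error only. The tests were run first on simulated data with 200 changed genes per comparison. Promoters were matched by symbol to RefSeq sequences of GRCm38.p6, and gene positions came from GENCODE M21.

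The members and gene lists were chosen with earlier results of these data known. Printed in full were members called between V2R and V1R neurons with 1 direction in all 3 libraries (at most 12 by size) and always Hspa5, Calr, Calr4, Xbp1, Atf4, Atf5 and Ddit3. Between libraries the rule named members past 1.5-fold with an interval that left out 1, at most 6 each way per class, and of each other list at most 3 called genes by size. Alternatives were DESeq2 1.42.0, no filter on low counts, the 5% limit, each library left out, a gate on single cells (mature: at least 1 Omp UMI and 5 receptor UMIs with 80% of 1 family; immature: at least 2 Gap43 UMIs, no Omp and at least 1 Stmn2; secretory: at least 2% secretory marker UMIs), cells of at least 2000 UMIs, means over cells, total UMIs without TMM, other scalings and other UMI minimums.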

Additional observations from a re-analysis of the deposited data

Results flagged for a closer look

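In 5 members the P10 mutant over P10 control ratio lay above 1 in V1R neurons and below 1 in V2R neurons, with a counting interval that left out 1 in each class. No such count was made over all genes, so whether 5 members is more than the share of all genes cannot be told. The difference between the classes was not tested, since each group was 1 library. For Calr4 the ratio was 1.82 (1.66 to 2.00) in V1R neurons and 0.844 (0.760 to 0.937) in V2R neurons. Manf, the BiP-binding factor, stood at 1.36 (1.20 to 1.55) and 0.723 (0.648 to 0.807), Sdf2l1 at 1.30 (1.02 to 1.65) and 0.697 (0.582 to 0.833), Dnajb11 at 1.27 (1.09 to 1.48) and 0.802 (0.664 to 0.965), and Pdia3 at 1.15 (1.05 to 1.25) and 0.780 (0.701 to 0.866). In the P10 mutant, 5 of the 14 V2R neurons lay in the Gnai2 sub-clusters, against 3 of 26 in the P10 control, and the part of this in the V2R ratios was not tested.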

How the results depend on the processing

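With 3 libraries of 1 per group, the class tests rest on 3 values a class, and low members (Derl3, Ern1, Pdia4, Trib3) were limited by depth. In the class fits library is a term, which sets the classes of 1 library against each other. Between libraries no paired analysis was possible because each group has 1 library. All 14 V2R calls kept their direction, and 7 were called in every alternative, as were 13 of 19 calls of mature over immature neurons and 11 of 26 of secretory cells. No such count was made over all called genes, so whether the members were more or less stable than other genes cannot be told. The cause of the changes was not tested.

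Leaving out each library gave 8 to 10 members higher in V2R neurons and 4 to 7 lower in secretory cells. Without the P10 control, the P10 mutant and the 3-month mutant, 47 of 7494, 67 of 7675 and 71 of 9513 genes were higher in V2R neurons. In the same order, 2402 of 8870, 2774 of 10399 and 3672 of 11320 genes were lower in secretory cells. The single-cell gate called 23 of 31 members higher and 1 lower in V2R neurons. Of the 11477 genes tested there, 585 were higher and 820 lower, against 120 and 67 of 7836 as reported. In mature neurons the gate called 1 member lower, where 2121 of the 11477 genes were. It gave 5 values higher (12 as reported) and 8 lower (2) between P10 mutant and control over V1R, V2R and immature neurons together. Between the mutants it gave 16 higher (7) and 13 lower (20). For these counts between libraries no share over all genes was computed. The mean summed level under the gate was 6861 CPM in V1R (8809.8) and 5570.5 CPM in immature neurons (7847). The 5% mitochondrial limit left 4 of 30 members lower in secretory cells, where 2668 of 8045 genes were lower, and 8 values lower in the P10 mutant. Means over cells gave 6 values lower in the P10 mutant, 12 higher at 3 months, and a 3-month median log2 ratio of V2R over V1R of 0.69.

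Some values changed sign. Under the gate these were, as log2 values, Pdia4 -0.46, Calr -0.82, P4hb -0.00041 and Atf4 -0.048 in V2R over V1R neurons, P4hb -0.16 in mature over immature neurons, Calr4 in immature neurons of the P10 mutant over control (-0.94), and, between the mutants, Pdia6 in V1R (0.11) and Calr4 (1.44), Canx (0.029) and Pdia3 (0.044) in immature neurons. Under the 5% limit they were Ddit3 -0.17 in V2R over V1R neurons, Atf5 -0.11 in mature neurons, Eif2ak3 -0.049 and Manf 0.23 in secretory cells, and Ddit3 in V2R neurons of the P10 mutant over control (-0.18) and of the 3-month over the P10 mutant (0.42). Leaving out a library gave V2R over V1R values from -0.088 (without the P10 control) to 0.48 for Eif2ak3, from -0.28 (without the P10 mutant) to 1.14 for Calr, with -0.021 without the 3-month mutant, and from -0.0067 (without the P10 mutant) to 0.43 for Atf4, mature over immature values from -0.068 (without the 3-month mutant) to 0.13 for Atf5, and secretory values from -0.24 to 0.16 for Manf. Calr also turned without doublets (-0.034) and with the low-UMI 3-month sub-cluster (-0.054). Manf, at -0.01 in secretory cells, turned to 0.034 with DESeq2, 0.026 without a filter, 0.066 in cells of at least 2000 UMIs, 0.052 without doublets and 0.17 with the secretory cluster of all libraries alone. With total UMIs only, 7 members were higher and 11 lower in secretory cells (19 and 7 with TMM), and the values that turned were Atf5 -0.0073 in mature neurons and, in secretory cells, Atf6 -0.44, Hspa5 -0.24, Eif2ak3 -0.60, Edem1 -0.53, Hsp90b1 -0.67, Canx -0.38, Dnajb9 -0.21, Sel1l -0.010, Atf4 -0.31, Creld2 -0.35, Sdf2l1 -0.54 and Syvn1 -0.0021. Total UMIs only, the low-UMI sub-cluster and the single secretory cluster were alternatives chosen after seeing the data.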

Other observations

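Plasma cells, antibody-secreting cells of which 134 were kept in the 3-month mutant library, stood at 7071 CPM over the 31 genes. Xbp1 reached 901 CPM, Hsp90b1 1610.1 CPM, Edem1 312 CPM and Derl3 179 CPM in them, against 197, 423, 27.9 and 87.0 CPM in the secretory cells of the same library. Calr4 had 1 UMI and Trib3 0 in plasma cells, and Calr stood at 288 CPM. There is 1 library, so no test was made, and these genes were chosen after their values were seen.

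A sub-cluster of 109 mature neurons of the 3-month library with a median of 857 UMIs was left out of the classes, since the leading genes of a secretory cluster reached 53.1% of their level there. Its V2R-dominant cells stood at 15840 CPM over the 31 genes and its V1R-dominant cells at 5910 CPM. Hspa5 counted 73 UMIs in the V2R-dominant and 15 in the V1R-dominant cells, a CPM ratio of 6.87 (3.91 to 12.9), and Calr4 50 and 24 UMIs, a ratio of 2.94 (1.77 to 5.01).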
